A study of Mus musculus with 2 samples.

Results

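Binding regions of the transcription factor Ovol2 were examined at 6 genes of the epithelial-mesenchymal transition (EMT): Zeb1, Zeb2, Snai1, Snai2, Twist1 and Vim. The members are all regions of the deposited Ovol2 and control IgG lists that overlap, by at least 1 bp, a fixed window of 400 to 600 kb around each gene in mouse genome build mm9. They were 9 of 1338 Ovol2 regions and 0 of 1045 IgG regions. The data are chromatin immunoprecipitation followed by sequencing (ChIP-seq) in HC11 cells, which are mammary epithelial cells of the mouse strain Balb/C kept as a line. Both groups were untreated cells at passages 4 to 7, grown with insulin, EGF and serum. They differed in the antibody, which was a custom-made one against mouse Ovol2 or a commercial control IgG, with 1 library each. With no replicate of either antibody, no test between them was made, and intervals cover counting error within a list only. Sequencing depth is unknown here, because neither list gives reads per region. The labelled epithelial identity of the cells could not be checked against marker genes, as no expression was measured.

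In EMT, epithelial cells lose their junctions and polarity and gain the motility of mesenchymal cells. A small set of transcription factors drives this change, among them Zeb1, Zeb2, Snai1, Snai2 and Twist1, which lower E-cadherin and other epithelial genes, while the filament protein vimentin, made from Vim, marks the mesenchymal state. Ovol2, a zinc finger protein of epithelia, is known mainly as a repressor and as a factor that keeps cells epithelial. Whether Ovol2 occupies the loci of EMT genes is the question that the windows address.

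Ovo proteins are known to recognise the hexamer CCGTTA, so the promoters of these genes were searched for it. RefSeq promoter sequences of 300 bases (250 before and 50 after the start of transcription, build GRCm38.p6) were at hand for 4 of the 6 genes: Zeb2, with several starts, and Vim, Snai1 and Twist1, with 1 each. None of the 4 held CCGTTA or its shorter core CGTTA on either strand, against 2.76% and 8.95% of the 32851 promoters of the table. Genes were counted as holding a match if any of their promoters did, whereas shares here are per promoter (of 27025 genes). The share of genes with a match is not given. At such low shares, a count of 0 among 4 genes carries little information. With any base at the second place (CNGTTA, which includes CCGTTA, chosen after the sequences were seen), Vim alone among the 4 had matches, 2 of them, against 23.3% of all promoters. Of 32 further EMT genes listed for this comparison, 17 had an entry: 0 held CCGTTA or CGTTA, and 5 held CNGTTA (Cldn4, Krt18, Sparc, Tgfb2 and Tgfbr1). With 15 genes lacking an entry, these counts do not describe the list as a whole, and the check is void for it. The Vim matches began 188 and 41 bases before the start. The Vim promoter is shown because it holds these matches, and the Twist1 promoter beside it because it holds none. Both are the 250 bases before the start, 5′ to 3′, on the + strand of GRCm38.p6, with matches to CNGTTA or its reverse complement in capitals.
Vim, chr2:13574061-13574310: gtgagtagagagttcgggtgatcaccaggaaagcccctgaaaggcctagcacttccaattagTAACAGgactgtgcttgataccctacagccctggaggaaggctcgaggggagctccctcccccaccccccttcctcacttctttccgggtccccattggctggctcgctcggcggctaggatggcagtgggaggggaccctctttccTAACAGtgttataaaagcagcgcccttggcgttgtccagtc
Twist1, chr12:33957421-33957670: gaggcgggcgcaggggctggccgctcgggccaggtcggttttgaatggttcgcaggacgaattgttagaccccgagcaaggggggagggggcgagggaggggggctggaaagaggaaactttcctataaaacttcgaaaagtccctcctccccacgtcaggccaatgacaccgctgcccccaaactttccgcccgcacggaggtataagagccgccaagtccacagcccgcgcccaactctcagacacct
The regions below are in mm9, a different build, and no mm9 annotation or sequence was used. It was therefore not determined whether a region covers a promoter, an exon or an intron of these genes. A match is a description of letters and not a site.

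Every window held at least 1 Ovol2 region and none held an IgG region. The Vim window held 3 Ovol2 regions, the Snai2 window 2, and those of Zeb1, Zeb2, Snai1 and Twist1 1 each. Windows of equal size were laid end to end along the same chromosomes, starting at the first region found there in either list and ending at the last, and 18.2% of them held an Ovol2 region (324 of 1783, with the chromosome of each gene counted once per gene), against 6 of 6 here. For IgG the share was 9.37%, against 0 of 6. The equal windows were laid without regard to genes, and how many regions windows around other genes would hold was not tested. The windows and genes were chosen with earlier results of these data known. This contrast, and those of density and distance below, are therefore descriptions and not independent support.

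**Figure D1:**
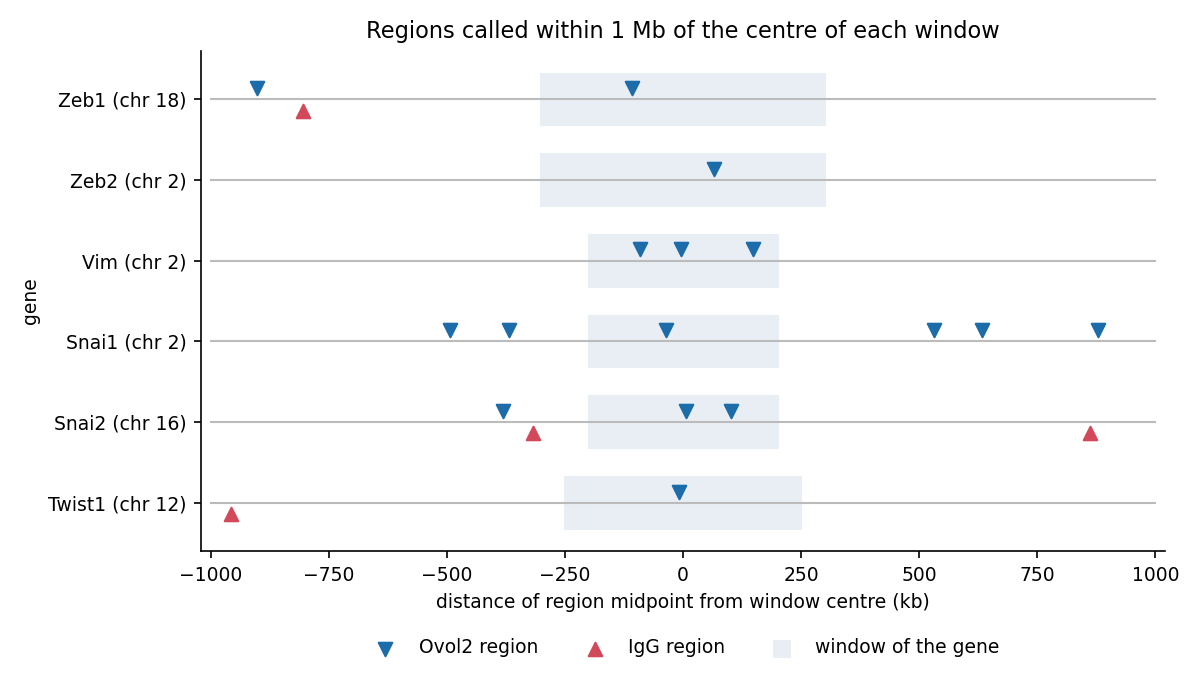
Map of the regions called within 1 Mb of the centre of each window, with the distance of the region's midpoint from the window centre in kb on the horizontal axis and 1 row per gene. Triangles pointing down are Ovol2 regions, triangles pointing up IgG regions, and the shaded bars the windows of 400 to 600 kb; every shaded bar holds an Ovol2 region and none an IgG region.

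The 9 regions made up 0.673% of the Ovol2 list (exact binomial 95% interval 0.308 to 1.27%). The windows span 2.9 Mb in all, which gives 3.10 Ovol2 regions per Mb. Over the autosomes as a whole there were 0.552 per Mb, so that 1.60 regions would fall in the windows at that density, a ratio of 5.63. The IgG list had 0.418 regions per Mb over the autosomes, or 1.21 in a stretch of this length. With a limit of 3 counts, its count of 0 in the windows allows up to 0.287% of the IgG list (the exact binomial 95% interval ends at 0.352%), so at this density an absence of IgG regions carries little information. Both densities are over all autosomes and are not matched to the chromosomes of the windows. Equal windows held an Ovol2 region in 18.2% of cases on those chromosomes, against 19.4% over all autosomes. For IgG the shares were 9.37% and 14.1%, so both expected counts run high for those chromosomes, that of IgG more so. No Ovol2 region of the windows overlapped an IgG region, and the nearest IgG region lay between 324 kb and 14140 kb away. The median was 1784 kb, against 1065 kb for the Ovol2 list as a whole, which covers other chromosomes. On chromosome 2, which holds the Zeb2, Vim and Snai1 windows, centres of equal windows had median distances to an IgG region of 2236 kb (600 kb windows) and 2276 kb (400 kb windows). The Zeb2 region (14140 kb) and the Vim regions (5821, 5973 and 6060 kb) lay farther than these medians, and the Snai1 region (1784 kb) nearer. On the other chromosomes the Zeb1, Snai2 and Twist1 regions lay 324 to 948.8 kb away, nearer than the medians there (1051 to 1703 kb). The median of 1784 kb is over all 9 regions and mixes these chromosomes.

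**Figure D2:**
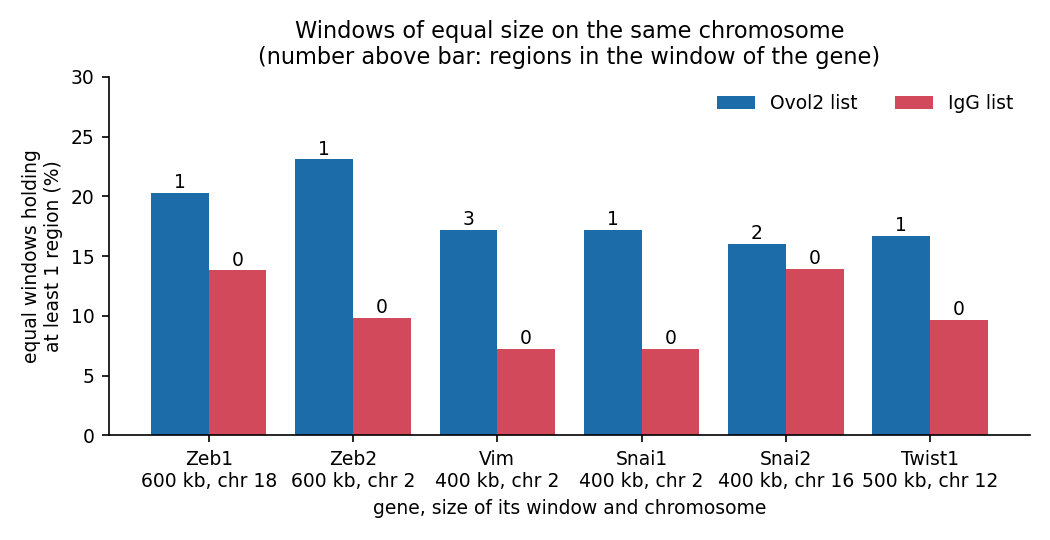
Share of windows of equal size on the same chromosome that hold at least 1 region, in percent, for the Ovol2 list (blue) and the IgG list (red), with the gene, the size of its window and its chromosome on the horizontal axis. The number above each bar is the count in the gene's own window. The Ovol2 shares run from 16.0 to 23.1%, whereas the windows of all 6 genes hold an Ovol2 region.

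The Zeb genes encode large zinc finger and homeodomain proteins that repress epithelial genes. Zeb1 has been described as a target of Ovol2. Its window, on chromosome 18 from 5.4 to 6.0 Mb, held 1 Ovol2 region of 1239 bp, from 5591573 to 5592811. This was the longest of the 33 Ovol2 regions on chromosome 18, and 90.8% of the whole list was shorter. On that chromosome 20.3% of equal windows of 600 kb held an Ovol2 region and 13.8% an IgG region. The next Ovol2 region, of 1065 bp, lay 602.8 kb below the window, and the next on the other side of the centre was 6.12 Mb from it. The nearest IgG region (97 bp, from 4894223 to 4894319) was 697.3 kb from the Zeb1 region. The Zeb1 window thus had a single, long Ovol2 region, which lay 107.2 kb from the window centre, so that windows of 200 kb or 100 kb about that centre no longer held it.

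Zeb2, the close relative of Zeb1, had a shorter region. Its window on chromosome 2, from 44.6 to 45.2 Mb, held 1 Ovol2 region of 648 bp, from 44964606 to 44965253. Only 16.1% of the list was shorter, and it ranked 80th by length among the 98 Ovol2 regions of chromosome 2. Equal windows of 600 kb held an Ovol2 region in 23.1% of cases on this chromosome and an IgG region in 9.83%. The region stood far from any other of its list: the nearest was 3318 kb away, and the nearest IgG region 14140 kb away. In the RefSeq order of protein-coding genes in GRCm38.p6, Zeb2 lies between Gtdc1 and Acvr2a.

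The Snail family proteins Snai1 (Snail) and Snai2 (Slug) are zinc finger repressors that bind E-boxes, among them those of the E-cadherin gene. Snai2 is also known as a factor of basal mammary cells. The Snai2 window, on chromosome 16 from 14.5 to 14.9 Mb, held 2 Ovol2 regions of nearly the same length. The first ran from 14705466 to 14706567 (1102 bp) and the second from 14799930 to 14801030 (1101 bp), with 93.4 kb between them. Both were longer than the list median of 887 bp, and they ranked 9th and 10th by length among 43 regions of the chromosome. On chromosome 16, 16.0% of equal windows of 400 kb held an Ovol2 region and 2.11% (5 of 237) held 2 or more, of which 4 do not touch the Snai2 window. A further Ovol2 region (979 bp) lay just outside, 181.7 kb below the window.

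Snai2 was also the gene nearest to IgG regions. An IgG region of 123 bp, from 14381378 to 14381500, lay 118.5 kb below the window, with a deposited score of 52.5 where the list runs from 50.01 to 3100. It was 324 kb from the first Snai2 region. On this chromosome 13.9% of equal windows held an IgG region. Doubling the Snai2 window brought this IgG region and the third Ovol2 region inside.

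Snai1 had 1 short Ovol2 region in a neighbourhood with many others. The region, from 167363411 to 167363961 on chromosome 2, spanned 551 bp, and 7.70% of the list was shorter. The window ran from 167.2 to 167.6 Mb, and 17.2% of equal windows of 400 kb on this chromosome held an Ovol2 region and 7.22% an IgG region. An Ovol2 region of 1303 bp lay 167.7 kb below the window, and within 1 Mb on either side of the centre there were 6 Ovol2 regions and 0 IgG regions. The same stretch of 2 Mb held 1 Ovol2 region at Zeb2 and Twist1, 2 at Zeb1 and 3 at Vim and Snai2. Stretches of 2 Mb elsewhere were not counted. A region in the Snai1 window was therefore less set apart from its surroundings than one at Zeb2 or Twist1. The protein-coding genes next to Snai1 in the GRCm38.p6 order are Rnf114 and Ube2v1, and the region was not assigned to any of them.

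Twist1 encodes a basic helix-loop-helix factor of mesoderm that induces EMT. Its window, on chromosome 12 from 34.4 to 34.9 Mb, held 1 Ovol2 region of 508 bp, from 34641769 to 34642276. This was the shortest of the 9, with 4.56% of the list shorter, and ranked 48th of 54 on its chromosome. Of equal windows of 500 kb, 16.7% held an Ovol2 region and 9.69% an IgG region. Like the Zeb2 region it stood alone: the next Ovol2 region was 2456 kb away, and on the other side of the centre none was met for 17.04 Mb. The nearest IgG region was 948.8 kb away.

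Vim was the member with the most regions in the windows of the rule. Its window on chromosome 2, from 13.3 to 13.7 Mb, held Ovol2 regions from 13407887 to 13408483 (597 bp), from 13494649 to 13495827 (1179 bp) and from 13646748 to 13647804 (1057 bp). The middle one lay 86.2 kb from the first and 150.9 kb from the third, and was the longest of them. On chromosome 2, 17.2% of equal windows of 400 kb held an Ovol2 region and 1 of 443 (0.226%) held 3 or more, a window that does not touch that of Vim. No equal window of any of the 4 chromosomes held more than 3. Outside the Vim window the surroundings were empty: the next Ovol2 region was 5220 kb beyond its edge and the next IgG region 5768 kb, whereas 7.22% of equal windows held an IgG region. The 3 regions thus lay within 239.9 kb, in a stretch of 10 Mb around the window centre with no other region of either list. How often stretches of 10 Mb elsewhere are as empty was not tested. Cubn, Trdmt1 and St8sia6 are among the genes next to Vim in the GRCm38.p6 order, and none of the 3 regions was assigned to a gene.

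The distance from the centre of a window to the nearest Ovol2 region gives a measure that does not depend on the width of the window. It was 4.17 kb for Vim, 5.47 kb for Snai2, 7.72 kb for Twist1, 36.0 kb for Snai1, 64.6 kb for Zeb2 and 107.2 kb for Zeb1. The centres of equal windows on the same chromosomes had medians from 902.8 to 1329 kb, all larger than the values of the 6 genes. Of those centres, 0.451% were as near as that of Vim, 0.422% as that of Snai2 and 0.881% as that of Twist1. For Snai1, Zeb1 and Zeb2 the shares were 4.29%, 4.35% and 5.76%. These shares include equal windows that touch the genes' windows. Without those, 0 of 436 centres were as near as that of Vim, 1 of 235 as that of Snai2 and 2 of 225 as that of Twist1. For Snai1, Zeb1 and Zeb2 they were 17 of 436, 6 of 136 and 15 of 289. The window centres are those of the rounded windows, not the start sites, so the order of the genes by distance says nothing of which region is closest to its gene.

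**Figure D3:**
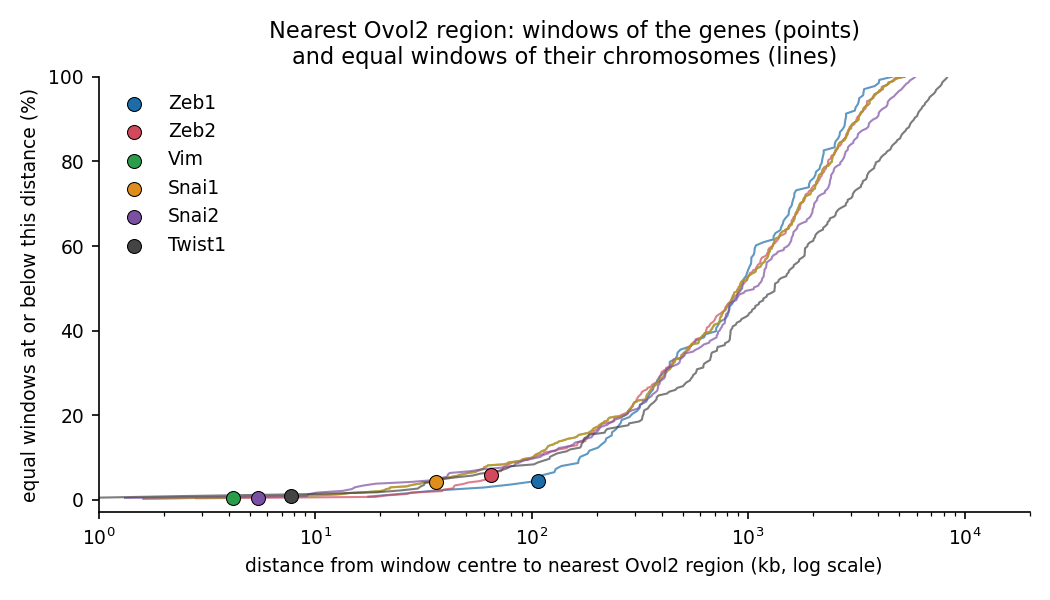
Distance in kb (log scale) from the centre of each window to the nearest Ovol2 region, against the share of equal windows of the same chromosome at or below that distance in percent. Points are the 6 genes and lines the equal windows of their chromosomes (the lines of Vim and Snai1 coincide); all points lie below 6%, with Vim, Snai2 and Twist1 below 1%.

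The same distance to IgG regions showed no such nearness. It was 318.5 kb for Snai2, 805.7 kb for Zeb1, 957 kb for Twist1, 1821 kb for Snai1, 5968 kb for Vim and 14200 kb for Zeb2. Between 21.9% (Snai2) and 95.3% (Zeb2) of the equal windows were as near to an IgG region.

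The lengths of the 9 regions fell into a long and a short set. The long set held the Zeb1 region, the middle and the third Vim region and both Snai2 regions, all from 1057 to 1239 bp. The short set held those of Zeb2, Snai1 and Twist1 and the first Vim region, from 508 to 648 bp. Against the quartiles of the Ovol2 list, which are 742 and 1079 bp, 4 of the 9 were above the upper one, 4 below the lower one and 1 between. The median over the 9 was 1057 bp, against 887 bp for the list. The list carries no score or height, and a length is not a measure of binding strength. The IgG regions had a median length of 125 bp and an upper quartile of 138 bp, both far below all of these. Calling settings may have differed between the lists, so the lengths of the lists are not directly comparable.

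The place of a region in the deposited list separated the genes in much the same way. The order of the list is not by position, and what it follows is not given in the sources used here. Of the 11 regions at its head, 0.822% of the list, 3 belong to these windows: the middle Vim region is 2nd, the first Snai2 region 8th and the Zeb1 region 11th. The third Vim region is 90th and the second Snai2 region 622nd. The remaining 4 are the short ones, with Zeb2 in place 914, the first Vim region in 943, Twist1 in 1100 and Snai1 in 1195. The count over the first 11 places was chosen after the places were seen. Over the whole list, length also fell along this order, from 961 bp (median over the first 669) to 816 bp (median over the others), so length and place are not separate lines of evidence.

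**Figure D4:**
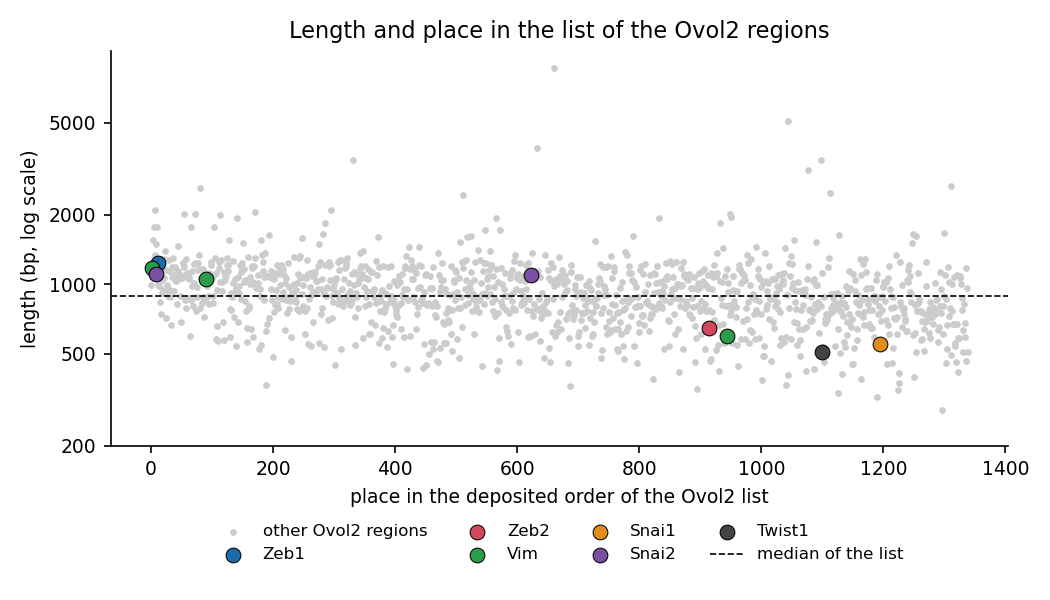
Length in bp (log scale) of each Ovol2 region against its place in the deposited order of the list, with the regions of the 6 windows in colour, the other regions in grey and the list median of 887 bp as a dashed line. Zeb1, Vim and Snai2 each have a long region among the first 11 places, whereas the regions of Zeb2, Snai1 and Twist1 are short and come from place 914 onwards.

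When the Ovol2 list was limited to its first 669 regions, the windows of Zeb1, Vim and Snai2 held 5 regions, and those of Zeb2, Snai1 and Twist1 held 0. The 671 longest regions gave 5, and these were the same regions (5 shared). The presence of a region in all 6 windows thus rests on including the later and shorter part of the list for Zeb2, Snai1 and Twist1. The share of equal windows that hold a region of the shortened lists was not computed. The 18.2% given above is for the whole list, so these counts of 5 have no background beside them. Of the 9 regions, 0 had another Ovol2 region within 10 kb; the closest pair, in the Vim window, was 86.2 kb apart.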

How the data were processed

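ChIP-seq regions of 1 Ovol2 and 1 IgG library of HC11 cells were used. Per the submitters' processing notes, Bowtie 0.12.8, SAMtools 0.1.18, bedtools 2.15.0 and build mm9 were used, with no role or order given. The deposited Ovol2 file has coordinates and no other column, and its name speaks of an FDR of 5%. Its caller is not given in the sources used here, nor is any use of IgG as a control. If IgG served so, few shared regions would follow from the calling. The authors deposited a score with each IgG region, on a scale that no header names, and the names of these regions point to MACS. Settings may have differed between lists.

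Coordinates are 1-based. Regions were counted in the 6 windows of the rule, all of which are named with every region in them, and in equal windows laid end to end between the first and the last region of either list on a chromosome; equal windows that touch the genes' windows were kept unless stated. The shares of each list that lie in the windows carry exact (Clopper-Pearson) 95% intervals; shares of equal windows are complete counts and carry none. No test between libraries was possible. The windows, members, gene list and settings were chosen with earlier results of these data known. Counting was tested on simulated data. Promoters came from RefSeq (GRCm38.p6); regions at the loci of 32 further EMT genes were not counted, because no mm9 annotation was used. Tools were Python 3.11.15, numpy 2.4.6, pandas 2.3.3, scipy 1.17.1 and matplotlib 3.10.9.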

Additional observations from a re-analysis of the deposited data

How the results depend on the processing

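No paired analysis was possible because there is 1 library per antibody, and no replicate could be left out. All 6 windows kept an Ovol2 region with windows of 0.5 or 2 times the size, with at least 50% of the region inside and with regions within 100 kb counted once. The settings with windows of 100 kb, 200 kb, 2 Mb and 4 Mb, the shortened Ovol2 lists and CNGTTA were chosen after the data were seen. Windows of 200 kb held 7 Ovol2 regions at 5 genes, with 0 at Zeb1, and windows of 100 kb held 4 at 4 genes, with 0 at Zeb1 and Zeb2. The first 669 regions of the list, like the 671 longest, gave 5 regions at 3 genes, and shares of equal windows were not computed for these shortened lists. IgG regions numbered 1 in 1 window at double size, 4 in 3 windows of 2 Mb and 5 in 4 windows of 4 Mb. Shares of equal windows were not computed for 2 Mb or 4 Mb, so the counts at those sizes have no background beside them. The share of equal windows with an Ovol2 region was 10.6% at 0.5 times the size, 29.9% at double size, 9.52% at 200 kb and 4.95% at 100 kb. For IgG it was 4.96%, 17.0%, 4.32% and 2.21% in the same order, and 14.1% over all autosomes (the cause was not tested). With the IgG regions at or above the median score, the nearest one was 14250 kb from the Snai1 centre, 861.1 kb from that of Snai2 and 2227 kb from that of Twist1, since fewer regions were kept. With CNGTTA 1 promoter matched. Depth is unknown, so a region missing from a list is not shown to be absent.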
